A study of Mus musculus with 26 samples.

Results

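The 31 genes described here act in DNA replication and at the passage of cells from G1 into S phase. They were chosen by name, and all 31 were found among the 20933 measured genes of the RNA polymerase II (Pol II) files, which held 31804 gene entries in all. The series followed the regenerating mouse liver by ChIP-seq, in which an antibody pulls down a protein with the DNA it occupies and that DNA is sequenced. Male wild-type C57BL6/J mice, a common laboratory strain, were 7 weeks old and had 3 of 5 liver lobes removed. The tissue taken out was the 0 h sample, and livers followed at 3, 8, 16, 24, 36, 48 and 168 h. Pol II was mapped at all 8 times, as were the related liver factors C/EBPalpha and C/EBPbeta, while Egr1, an immediate early factor, was mapped at 36 h only. There was 1 sample per antibody and time, from livers of 5 mice, and whether these were pooled before sequencing is not stated in the labels. There were no replicates. Every group shared the strain, sex, age and operation, and no unoperated or sham-operated group was analysed here, so effects of surgery and of time of day cannot be told apart from regeneration.

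Before a cell copies its DNA, the origin recognition complex, Cdc6 and Cdt1 load a ring of Mcm proteins onto origins. Cyclin E and its kinase then help to switch the rings on, Gins proteins join them to form the active helicase, and polymerases, the Pcna clamp, Fen1 and Lig1 make and seal the new strands. Many of these genes are targets of E2F factors, which the retinoblastoma family of proteins holds back in resting cells. Adult hepatocytes are mostly out of the cycle and return to it after partial hepatectomy, which makes this operation a classical model of synchronous cell cycle entry in an animal. Whole liver also holds other cell types, so fewer cells of a type and less Pol II per cell cannot be told apart.

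Pol II values are the authors' signed signal over the stretch listed for each gene, divided here by the width of that stretch. The stretch, called a row below, starts about 500 bp past the gene start, and whether it spans the whole gene was not checked. The labels do not say how values below 0 arose. The files give no read counts, so the depth and the counting error of a value are unknown. The 3 h library stood apart, with a signal that summed to below 0 over all entries. The level of genes without signal, at or under 0.5 units per bp in every library, lay between -0.284 (3 h) and -0.0590 (168 h), with 36 h inside that range at -0.172. Hepatocyte markers such as Alb, Apoa1 and Hnf4a carried signal in all 8 libraries. Levels printed are as deposited unless called rescaled, which means divided by 1 number per library, and positions are in the mouse build mm9.

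More of the replication and G1/S genes carried Pol II at 36 h than at any other time, though not all of them did. Mcm7, Mcm10, Tk1 and E2f8 also carried it at most other times. At 36 h 19 of the 31 lay above 0.5 units per bp, against 19.7% of all measured genes, and at the other 7 times 3 to 5 did, against 12.9% to 20.5%. After rescaling, which lowers the 36 h values, the number at 36 h was 14, against 17.9%, and at the other times again 3 to 5, against 14.7% to 18.5%. The median member was at 0.548 at 36 h and between -0.376 (3 h) and -0.0821 (48 h) otherwise, while the median of all measured genes moved only from -0.208 to -0.0103. Above 0 were 29 of 31 members at 36 h, against 40.4% of measured genes, and 4 to 13 at the other times, against 26.4% to 44.8%. Among the 19, Chaf1b (0.517), Mcm4 (0.522) and Fen1 (0.542) lay just inside 0.5, and Lig1 (0.494), Ccne2 (0.489) and Chaf1a (0.403) just outside.

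Most members also had their highest value at 36 h. Over all 31 members 26 were highest at 36 h after rescaling, against 9.25% of all measured genes, and 25 as deposited, against 9.65%. Of the 15 members above 0.5 in at least 1 rescaled library, 13 peaked there, against 9.51% of the 6395 genes above 0.5 in at least 1. They were Mcm2, Mcm3, Mcm5, Mcm6, Mcm7, Cdt1, Gins2, Pcna, Rrm2, Tk1, Uhrf1, E2f1 and E2f8. The exceptions were Mcm10, highest at 0 h, and Ccne2, highest at 24 h. Of the 13, 9 passed 0.5 through the 36 h library alone, so the filter fixed their peak. Of the 6 members above 0.5 at another time, 4 peaked at 36 h after rescaling (Mcm7, Tk1, E2f1 and E2f8), against 7.35% of such genes, and 3 of 6 as deposited, against 10.7%. As deposited, 20 members passed 0.5 somewhere and 17 of them peaked at 36 h, against 13.8% of the genes that passed, with Mcm4, Cdc6, Fen1, Rrm1 and Chaf1b joining and E2f8 highest at 16 h instead. A signal above 0.5 at 36 h and at no other time was found in 9 members after rescaling, against 0.712% of genes, and in 14 as deposited, against 1.02%. For 12 members 36 h was the only time with a deposited value above 0, against 1.15% of genes.

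**Figure D1:**
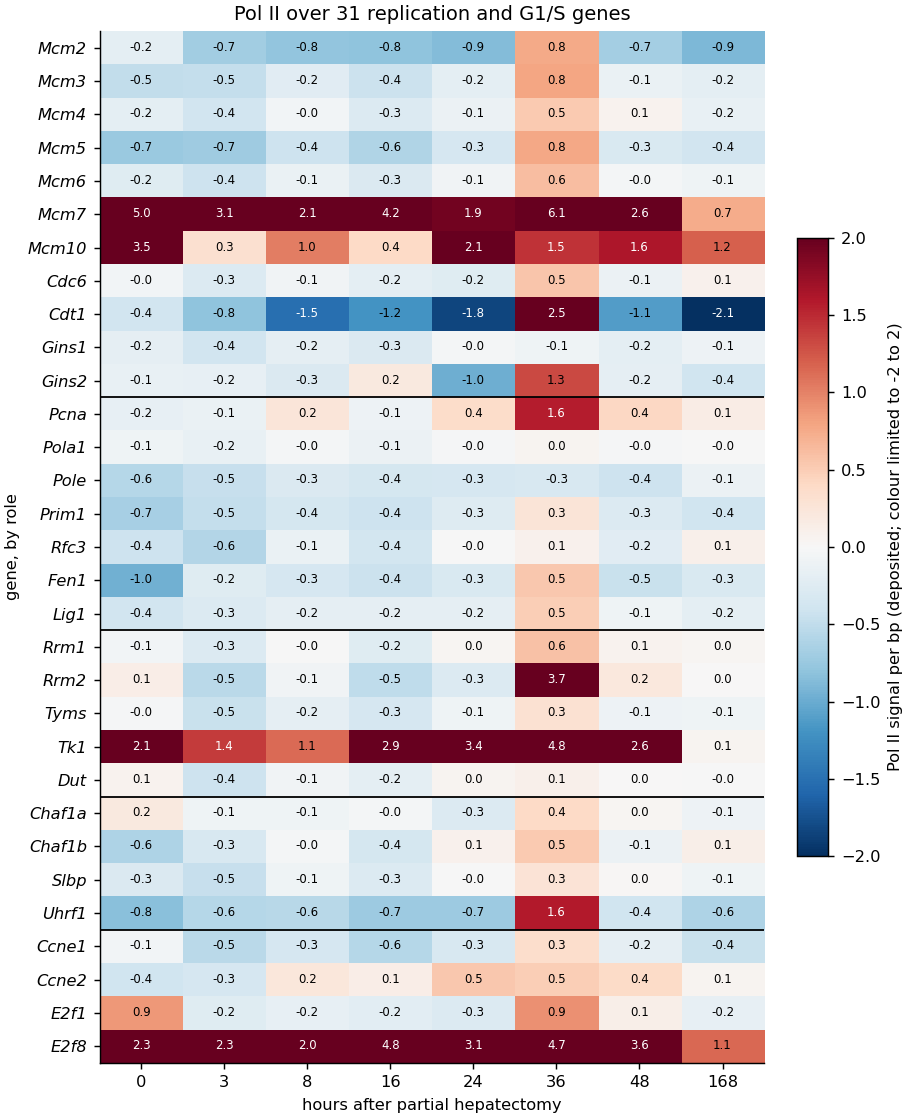
Pol II signal per bp as deposited for the 31 genes (rows, grouped by role, with lines between the groups) at each time after partial hepatectomy (columns, hours), 1 library per time. Red marks values above 0 and blue values below 0, with colours limited to -2 and 2 and the value printed in each cell; 29 of 31 genes are above 0 in the 36 h column.

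At 36 h 12 members had both a C/EBPbeta region within 1 kb of the start and a Pol II signal above 0.5, and the promoters of 6 of them are shown as examples. These 6 were picked by hand after their values were seen, and Mcm4, Mcm7, Cdc6, Fen1, Rrm1 and Chaf1b met the same description. Sequences are RefSeq promoters in the build GRCm38.p6, from 250 bases before to 50 bases after the annotated start, 5′ to 3′ on the strand of the gene. Capitals mark matches, on either strand, to TTTNNCGC (a loose form of the E2F consensus), CCAAT (the NF-Y box) and TTGCNNAA (a C/EBP-like sequence). N stands for any base. Where matches overlap, the capitals run together, as for opposite E2F matches in Mcm6 and opposite CCAAT matches in Uhrf1. RefSeq gives Uhrf1 a pair of starts.
Rrm2 (chr12:24708004-24708303, plus strand): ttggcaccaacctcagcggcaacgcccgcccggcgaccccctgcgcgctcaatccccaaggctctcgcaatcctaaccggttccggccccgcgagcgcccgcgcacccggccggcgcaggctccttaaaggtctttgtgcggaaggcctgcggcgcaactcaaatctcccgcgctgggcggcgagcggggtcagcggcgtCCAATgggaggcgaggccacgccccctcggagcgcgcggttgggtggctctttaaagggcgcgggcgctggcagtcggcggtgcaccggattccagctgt
Cdt1 (chr8:122567765-122568064, plus strand): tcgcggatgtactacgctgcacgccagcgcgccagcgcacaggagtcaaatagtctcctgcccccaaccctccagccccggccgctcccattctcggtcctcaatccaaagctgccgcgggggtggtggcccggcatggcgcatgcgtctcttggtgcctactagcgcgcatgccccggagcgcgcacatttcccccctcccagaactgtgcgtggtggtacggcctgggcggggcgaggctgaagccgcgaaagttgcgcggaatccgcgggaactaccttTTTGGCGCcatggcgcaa
Uhrf1, start 1 (chr17:56303087-56303386, plus strand): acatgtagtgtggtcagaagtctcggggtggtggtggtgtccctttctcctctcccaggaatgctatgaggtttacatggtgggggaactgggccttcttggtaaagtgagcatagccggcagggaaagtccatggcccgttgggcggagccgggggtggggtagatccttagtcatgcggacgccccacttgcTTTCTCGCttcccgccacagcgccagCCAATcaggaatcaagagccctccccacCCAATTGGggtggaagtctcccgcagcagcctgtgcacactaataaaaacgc
Uhrf1, start 2 (chr17:56304063-56304362, plus strand): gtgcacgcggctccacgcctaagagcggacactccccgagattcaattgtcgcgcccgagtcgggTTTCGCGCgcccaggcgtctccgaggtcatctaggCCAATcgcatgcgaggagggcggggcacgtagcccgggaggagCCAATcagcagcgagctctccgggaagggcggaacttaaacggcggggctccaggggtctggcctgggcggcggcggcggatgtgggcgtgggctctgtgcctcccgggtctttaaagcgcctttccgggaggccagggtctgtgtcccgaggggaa
Pcna (chr2:132253131-132253430, minus strand): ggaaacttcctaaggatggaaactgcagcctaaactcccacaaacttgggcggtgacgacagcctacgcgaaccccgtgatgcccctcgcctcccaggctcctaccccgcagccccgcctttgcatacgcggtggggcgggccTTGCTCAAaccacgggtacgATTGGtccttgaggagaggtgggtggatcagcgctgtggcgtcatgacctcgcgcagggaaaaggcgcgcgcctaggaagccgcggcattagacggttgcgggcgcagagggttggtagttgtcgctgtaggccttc
Mcm6 (chr1:128359656-128359955, minus strand): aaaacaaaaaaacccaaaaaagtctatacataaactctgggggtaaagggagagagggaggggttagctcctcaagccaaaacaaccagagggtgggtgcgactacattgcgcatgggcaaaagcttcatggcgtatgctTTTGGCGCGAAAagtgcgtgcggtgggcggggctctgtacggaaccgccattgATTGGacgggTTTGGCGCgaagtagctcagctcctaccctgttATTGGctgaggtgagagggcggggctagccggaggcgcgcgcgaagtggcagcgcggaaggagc
Mcm3 (chr1:20820263-20820562, minus strand): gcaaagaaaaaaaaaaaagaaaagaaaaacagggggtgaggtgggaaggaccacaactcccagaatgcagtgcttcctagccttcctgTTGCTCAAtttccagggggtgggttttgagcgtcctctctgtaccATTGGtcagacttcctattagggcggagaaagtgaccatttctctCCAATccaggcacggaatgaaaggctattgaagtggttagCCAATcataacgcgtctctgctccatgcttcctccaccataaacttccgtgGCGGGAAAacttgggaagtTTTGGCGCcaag
Letters of the E2F kind were in the promoters of 11 of the 26 members that the RefSeq table holds, which is 42.3%, against 5.97% of 26742 genes. Mcm4, Gins1, Gins2, Pole and Ccne2 were not matched. Members' promoters were also richer in G and C, with a median of 61.3% against 53.0%. Among all promoters of equal length within the members' range of G and C, 45.33% to 77.33%, 6.20% held the letters. That range is wide, so G and C were not matched. Shares within the range are per promoter, whereas a member or gene was counted when any of its promoters matched. CCAAT was in 16 members (61.5%) against 41.0% of genes, and the Sp1 letters GGGCGG in 20 (76.9%) against 38.5%. Among all promoters within that range of G and C, 36.9% held CCAAT and 44.4% GGGCGG. The C/EBP-like letters were in 3 (11.5%) against 12.2%, those of the cyclic AMP response element, TGACGTCA, in 1 (3.85%) against 2.04%, and the Egr letters GCGNGGGCG in 4 (15.4%) against 6.33%. Such matches describe these windows only. Of the 11 members with E2F letters 10 were highest in Pol II at 36 h, and of the 15 without them 14 were.

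Pol II signal at 36 h was set against 0 h to ask which of these genes were higher at that time than in the resting liver. On the scale of log2(rescaled signal + 0.5), with values below 0 set to 0, 9 of 31 members were higher by 1 or more and none lower, against 4.27% of measured genes higher and 4.24% lower. These 9 were Mcm2, Mcm3, Mcm5, Mcm6, Cdt1, Gins2, Pcna, Rrm2 and Uhrf1. The median change of the members was 0.86, and that of all measured genes 0.00. The scale understates the change of genes that start below 0. With a pseudocount of 0.05 the number was 22 and with 2 it was 2, so the number is set largely by that choice. Without rescaling it was 15. Mcm10, just short of the limit for lower genes at -0.996, passed it with no rescaling (-1.03) and with a pseudocount of 0.05 (-1.24). Against the 24 h library, 10 members were higher by 1 or more and none lower, against 3.00% and 1.26% of measured genes.

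Other times showed no such rise. The number of members higher than at 0 h by 1 or more was 1 at 24 h (Ccne2, against 4.92% of measured genes) and 0 at 3, 8, 16, 48 and 168 h, where 4.78%, 3.30%, 3.65%, 3.58% and 5.48% of measured genes were. Lower by 1 or more were 2 members each at 3, 8 and 16 h, against 6.76%, 4.78% and 4.11% of measured genes. At 24 h 1 member was lower (5.15%), at 48 h 0 (4.90%) and at 168 h 3 (6.19%), which were Mcm7, Tk1 and E2f1. All of these comparisons share the single 0 h library. The spread of the other 7 libraries gives another measure. In 16 members the rescaled 36 h value lay 3 or more SD above the mean of the other 7 libraries, against 1.66% of measured genes. That SD holds time as well as error, since no time was repeated.

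**Figure D2:**
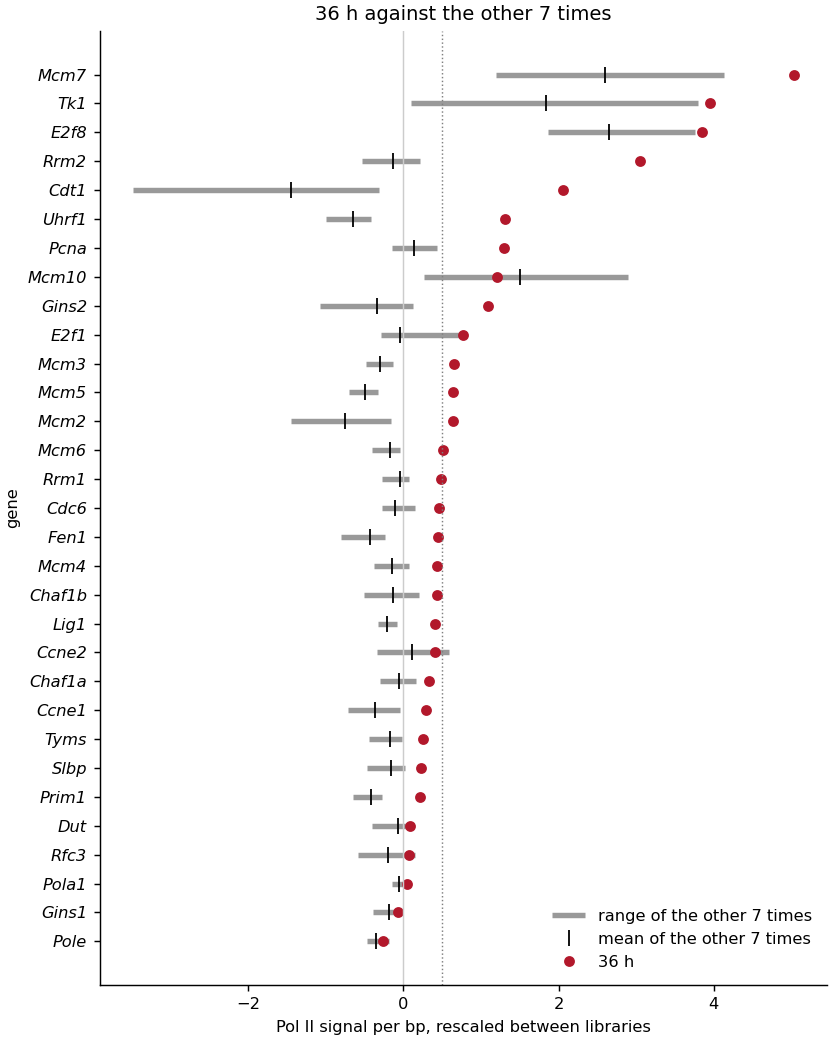
Rescaled Pol II signal per bp of the 31 genes (rows, ordered by the 36 h value): red points are 36 h, grey bars the range and black ticks the mean of the other 7 times, and the dotted line is 0.5. For Rrm2, Cdt1, Uhrf1 and Pcna the red point lies clear of the bar, whereas for Mcm10 and Ccne2 it lies within it.

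Genes of origin licensing and the helicase were the largest group, with 11 members. Mcm2 to Mcm6, which are 5 of the 6 ring subunits, were above 0.5 at 36 h and at no other time. Mcm2 (chromosome 6, 88833470 to 88848194) was at -0.192, -0.692, -0.789, -0.808, -0.865, 0.765, -0.676 and -0.894 from 0 to 168 h. Mcm3 was at 0.786 at 36 h and between -0.499 and -0.134 otherwise. Mcm5 was at 0.773 at 36 h and between -0.746 and -0.311 otherwise. These subunits thus lay below 0 at 7 times and above it at 36 h alone. Mcm6 did too, at 0.620 at 36 h and -0.407 to -0.0449 otherwise. Mcm4 was at 0.522 at 36 h and reached 0.0722 at 48 h. Rescaled 36 h values were 3.52 (Mcm2), 8.11 (Mcm3), 4.11 (Mcm4), 7.78 (Mcm5) and 5.84 (Mcm6) SD above the mean of the other 7 libraries.

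Mcm7 stood apart from the other ring subunits by its signal at every time. It was at 4.98, 3.06, 2.05, 4.24, 1.94, 6.09, 2.56 and 0.738 from 0 to 168 h. Its 36 h value was the highest and its 0 h value the next, so its change against 0 h was only 0.26 on the log2 scale, and 1.07 against 24 h. The signal at 168 h was the lowest, with a change of -1.45 against 0 h on the log2 scale. Rows of Cops6 and Ap4m1, transcribed the other way, lay within 3 kb of Mcm7, with 0.362 and 1.38 at 0 h and 2.79 and 1.21 at 36 h. Reads from neighbouring genes cannot be told apart by strand in ChIP, and their part in the Mcm7 signal was not tested.

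Cdt1, the loader that is destroyed once replication starts, had the highest 36 h value of the licensing genes that lay below 0 at the other times. Its values from 0 to 168 h were -0.381, -0.798, -1.51, -1.19, -1.83, 2.49, -1.11 and -2.15. Only the 36 h library was above 0, and its change against 0 h was 2.35 on the log2 scale. Aprt, whose row lies within 3 kb of Cdt1 on the other strand, was at 2.09 at 0 h and 7.98 at 36 h, and its part in the Cdt1 value was not tested. Cdc6, the other loader, was at 0.548 at 36 h and at most 0.0892 at another time. Gins2, of the helicase complex, was at 1.31 at 36 h, 0.192 at 16 h and -0.972 to -0.150 otherwise, and was higher by 1.66 on the log2 scale at 36 h than at 0 h. Gins1, of the same complex, stayed below 0 at all 8 times, from -0.389 to -0.0386. Gse1, whose row lies within 3 kb of Gins2 on the other strand, was at 1.935 at 0 h and 0.547 at 36 h. Its part in the Gins2 value was not tested.

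Mcm10, a helicase assembly factor, ran against the group. It was at 3.48, 0.327, 1.02, 0.402, 2.10, 1.45, 1.62 and 1.20 from 0 to 168 h. Its highest value was in the resting liver and its 36 h value lay inside the range of the other times. Its log2 changes against 0 h were -2.04 at 3 h, -2.15 at 16 h and -0.996 at 36 h, the last just short of the limit of 1.

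Among genes of DNA synthesis at the fork, Pcna, the sliding clamp, had the highest 36 h value. It was at -0.171, -0.128, 0.235, -0.0938, 0.366, 1.56, 0.417 and 0.141 from 0 to 168 h. The values at 24 and 48 h were above those at 0, 3 and 16 h, and the change at 36 h against 0 h was 1.84 on the log2 scale. Fen1, the flap nuclease, was at 0.542 at 36 h and below 0 at the other 7 times, and Lig1, the ligase, was at 0.494 and likewise below 0 elsewhere. A row on the other strand overlaps each: that over Fen1 was at -1.72 at 0 h and 1.11 at 36 h and that over Lig1 was at -1.25 and 1.93, and the parts of these genes cannot be told apart.

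The polymerase genes had little signal. Prim1, the primase subunit, was at 0.259 at 36 h and between -0.667 and -0.262 otherwise. Pola1, of the polymerase that primes synthesis, was at 0.0479 at 36 h and below 0 elsewhere, over a row of 326888 bp. A row of 2236 bp on the other strand overlaps Pola1. It was at 0.363 at 0 h and 1.46 at 36 h, and its part in the Pola1 value was not tested. Rfc3, of the clamp loader, was at 0.0850 at 36 h and 0.0951 at 168 h. Pole, of the leading strand polymerase, stayed below 0 throughout, from -0.563 to -0.116, over a row of 4394 bp. Prim1, Fen1 and Lig1 lay 4.19, 4.61 and 6.61 SD above the mean of the other 7 libraries at 36 h, whereas Pola1, Rfc3 and Pole were within 1.91 SD.

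Rrm2 had the largest change of the nucleotide supply genes. Rrm2 (chromosome 12, 25393649 to 25398972) encodes the regulatory subunit of ribonucleotide reductase, which makes deoxynucleotides. Its values from 0 to 168 h were 0.128, -0.538, -0.0757, -0.502, -0.275, 3.69, 0.207 and 0.0138. The 36 h library was 2.55 above 0 h on the log2 scale, 2.83 above 24 h and 11.8 SD above the mean of the other 7. Its change against 0 h exceeded that of Cdt1 (2.35) on this scale, but with the background level set per library it was 2.29 against 2.45 for Cdt1, and with a pseudocount of 0.05 it was 4.32 against 5.40. A longer row on the other strand, which overlaps Rrm2, was at 0.419 at 0 h and 0.459 at 36 h. Rrm1, the large subunit of the same enzyme, was at 0.591 at 36 h and at most 0.0736 otherwise. Tyms, thymidylate synthase, was at 0.300 at 36 h and below 0 elsewhere. Dut, which clears dUTP, was at 0.100 at 36 h and 0.0759 at 0 h and never passed 0.5.

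Tk1, thymidine kinase of the salvage pathway, changed over several times rather than in 1 library. It was at 2.11, 1.41, 1.14, 2.92, 3.44, 4.78, 2.56 and 0.0622 from 0 to 168 h. It was lowest at 168 h, with a change of -1.91 against 0 h on the log2 scale, and after rescaling its 24 and 36 h values were 3.80 and 3.95. Tk1 has a short row of 1060 bp, and Afmid, whose row lies within 3 kb on the other strand, was at 10.1 at 0 h and 5.36 at 36 h. The part of Afmid in the Tk1 signal was not tested.

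The chromatin genes supply histones and their marks behind the fork. Uhrf1, which brings the maintenance DNA methyltransferase to newly copied DNA, was at -0.840, -0.574, -0.550, -0.720, -0.723, 1.59, -0.396 and -0.616 from 0 to 168 h. It was above 0 at 36 h alone, with a change of 1.86 on the log2 scale against 0 h, and lay 9.72 SD above the mean of the other 7 libraries. Chaf1b and Chaf1a, subunits of the histone chaperone CAF-1, were at 0.517 and 0.403 at 36 h, and at most 0.122 and 0.202 at another time. The Chaf1b value comes from a short row of 2450 bp. Ubxn6, within 3 kb of Chaf1a on the other strand, was at 0.0282 at 0 h and 3.58 at 36 h, and its part was not tested. Slbp, which binds the ends of histone messenger RNAs, was at 0.281 at 36 h and at most 0.0205 otherwise. A short row of 654 bp on the other strand overlaps Slbp and was at 9.22 at 0 h and 18.9 at 36 h, and its part in the Slbp value was not tested.

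Control genes of the G1/S step were the most mixed. Ccne2, of cyclin E, was at -0.397, -0.336, 0.224, 0.129, 0.533, 0.489, 0.385 and 0.0617 from 0 to 168 h, so 24, 36 and 48 h were close to each other. The longer Ints8 row, on the opposite strand, overlaps Ccne2. Ints8 was lowest in the 3 h library (-0.313) and highest in the 24 h library (0.191), with -0.000492 in the 36 h library. The part of Ints8 in the Ccne2 values was not tested. Ccne1, the other cyclin E gene, was at 0.348 at 36 h and below 0 at the other times. E2f1, an activating E2F factor, was at 0.869, -0.248, -0.169, -0.217, -0.267, 0.921, 0.124 and -0.169. Its values at 0 and 36 h were alike and the 24 h value was below 0, and the change from 24 to 36 h was 1.34 on the log2 scale. E2f8, a repressive E2F factor with a part in hepatocyte polyploidy, was at 2.34, 2.33, 2, 4.75, 3.12, 4.66, 3.59 and 1.15. It carried signal throughout, with the highest deposited value at 16 h and, after rescaling, values of 3.44, 3.85 and 3.75 at 24, 36 and 48 h.

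**Figure D3:**
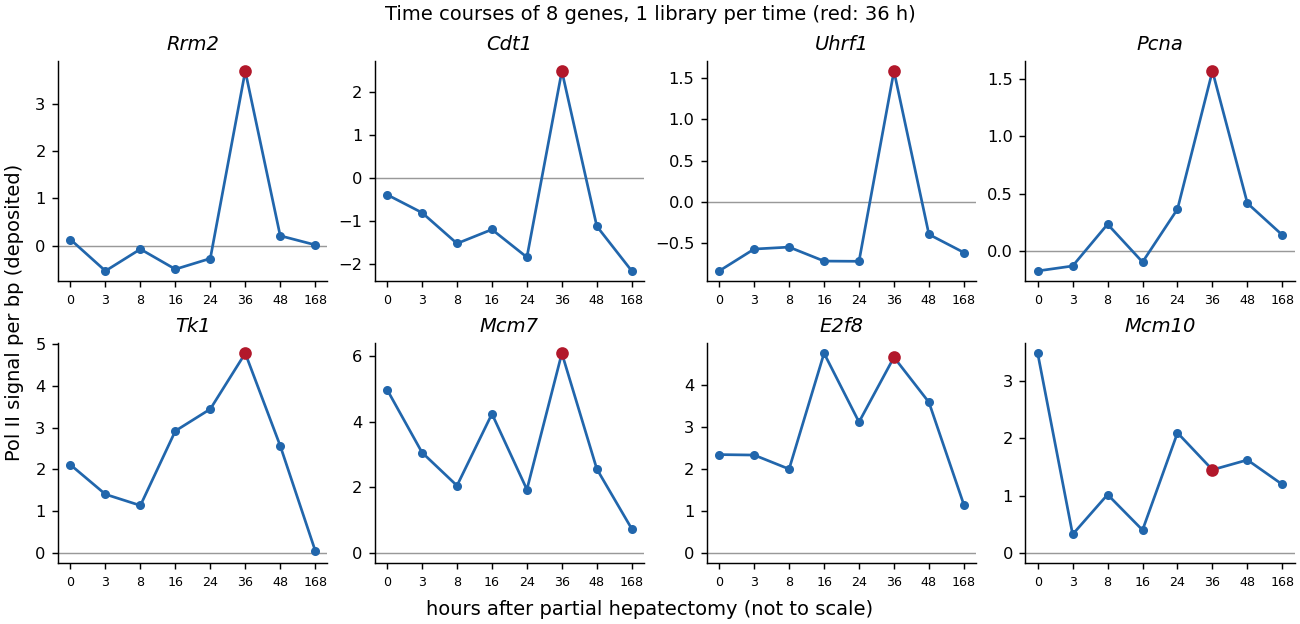
Deposited Pol II signal per bp (vertical axes, scaled by gene) at 8 times after partial hepatectomy (horizontal axes, hours, evenly spaced) for 8 genes, with 36 h in red and 1 library per time. Rrm2, Cdt1 and Uhrf1 are raised at 36 h alone, Tk1 climbs from 8 to 36 h, and Mcm10 is highest at 0 h at 3.48.

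A smooth trend over the 8 libraries was tested with limma in the 4761 genes above 0.5 in at least 2 rescaled libraries. Only 5 members passed that filter: Mcm7, Mcm10, Tk1, E2f1 and E2f8. None passed at an adjusted p under 0.05, where 0.0210% of the tested genes did. The limma F test gave Tk1 the lowest value, an adjusted p = 0.453 after Benjamini-Hochberg correction. The adjusted p of the other 4 lay between 0.542 and 0.604. At an unadjusted p under 0.05 there was 1 member of 5, and 9.77% of all tested genes. With no filter all 31 were tested, and none passed, with 3 at an unadjusted p under 0.05, where 13.9% of all genes were. The genes with a raised value at 36 h alone, Rrm2, Cdt1 and Uhrf1 among them, did not pass the filter, so the filtered test does not bear on them. The unfiltered test cannot decide on them either. A smooth curve can hardly follow a rise in 1 library, which then counts as error.

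The other replication and G1/S genes, 64 in a list beside the 31, were highest at 36 h in part. Of these 21 were above 0.5 in at least 1 rescaled library. Of the 21, 13 were highest at 36 h, against 9.51% of all such genes. Higher by 1 or more at 36 h than at 0 h were 9 of 64, against 4.27% of measured genes. Lower was 1, Gins4, against 4.24%. The largest changes, in genes named after their values were seen, were those of Tcf19, a factor induced at G1/S (-1.05 at 0 h and 3.23 at 36 h, a change of 2.66 on the log2 scale), Cdc45l, the gene of the helicase component Cdc45 (-0.00349 and 1.13, 1.52), and Gmnn, which encodes the Cdt1 inhibitor geminin (-0.237 and 0.973, 1.38). Only Pole3, a small subunit of the leading strand polymerase, and Tfdp1, an E2F partner, were above 0.5 in at least 2 libraries among those called. Pole3 went from -0.118 at 0 h to 0.905 at 36 h, a change of 1.32, and Tfdp1 from 0.301 to 1.51, a change of 1.22. Dnmt1, the maintenance methyltransferase that works with Uhrf1, was at 0.829 at 36 h and below 0 at the other 7 times. The median change of the list was 0.17.

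Genes of G2/M and mitosis, 20 in number, were highest at either 36 or 48 h in most cases. Of these 11 were highest at 36 h, against 9.25% of all measured genes, and 5 at 48 h, after rescaling. In the replication group 26 of 31 members were highest at 36 h, which leaves few for other times. None of them was highest at 48 h, and 6 of the 64 other replication and G1/S genes were. The share of all measured genes highest at 48 h was not counted, so the numbers at 48 h cannot be judged against it. Many of the G2/M genes had little signal. Only 5 of the 20 were above 0.5 in at least 1 rescaled library. Of those 5, 2 were highest at 36 h, against 9.51% of all such genes. Bub1, Cenpe, Foxm1 and Mybl2 were never above 0. Their summed rescaled signal was 6.86 at 36 h and 6.27 at 48 h. For the 11 licensing and helicase genes the sums were 12.7 and 4.45, for the 5 nucleotide supply genes 7.82 and 2.99, for the 7 genes of synthesis at the fork 2.47 and 0.436, and for the 4 chromatin genes 2.30 and 0.0586. For the 4 G1/S control genes they were 5.31 and 4.29, closer to each other than in the other member groups but less close than in the G2/M genes. The difference between the groups was not tested.

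Markers of other liver cell types lay at 36 h within the range of the other times when summed. The summed rescaled signal of 7 macrophage and Kupffer cell markers was 2.45 at 36 h and 2.17 to 6.48 at the other times. For 8 endothelial markers it was 2.92 and 2.10 to 4.38, and for 8 lymphocyte markers 0.222 and 0 to 1.14. Stellate cell and fibroblast markers, 8 in all, summed to 0.0648 at 36 h and 0 to 0.538 otherwise, and 5 cholangiocyte markers to 0 and 0 to 3.80. Never above 0 were the lymphocyte markers Cd4, Cd8a, Cd79a and Ms4a1, 5 of the stellate cell and fibroblast markers (Des, Col1a1, Col1a2, Acta2 and Pdgfrb) and 4 of the cholangiocyte markers. None of these markers was higher by 1 or more at 36 h than at 0 h. The 10 hepatocyte markers summed to 541 at 36 h and 486 to 948 otherwise, with Apoa1 the largest part at 36 h. Singly they were less steady than this sum. At 36 h 3 of the 10 were higher by 1 or more than at 0 h: Alb (1.26), Cps1 (2.10) and Fgb (1.63). Cyp2e1 was lower, with a change of -1.34.

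C/EBP regions near the starts of the replication genes were counted in each list, to ask whether the factors lay at these promoters as the genes became active. A gene was counted when the centre of a region lay within 1 kb of its start. C/EBPbeta regions were most frequent at 36 h, where 17 of 31 members had one, against 25.1% of measured genes. The 3 h list followed with 15 members (27.6%). The resting liver had 7 (18.5%), and the 24 h list, just before the rise in Pol II, had 5 (14.4%). Members with a region numbered 8 each in the lists of 8, 16 and 168 h (18.3%, 15.7% and 15.5%) and 6 in that of 48 h (13.4%). For C/EBPalpha the numbers were 5, 8, 4, 7, 4, 8, 6 and 7 from 0 to 168 h, against 13.4%, 17.6%, 13.2%, 16.2%, 11.5%, 16.8%, 14.1% and 16.7% of measured genes. Within 10 kb at 36 h 23 members had a C/EBPbeta region (44.2% of measured genes) and 14 a C/EBPalpha region (36.2%), beside 71.7% and 61.1% of the 6395 genes above 0.5 in at least 1 Pol II library. The members' 74.2% was thus near that share for C/EBPbeta and their 45.2% below it for C/EBPalpha. Within 1 kb in the full lists of 36 h those genes stood at 42.3% and 29.5%, and the members at 54.8% and 25.8%. Lists differed in length, so the top 20061 regions of each were also compared. There 12 members had a C/EBPbeta region at 36 h (18.3% of measured genes), 10 at 3 h (19.5%), and 3, 5, 6, 4, 6 and 5 at 0, 8, 16, 24, 48 and 168 h (9.38%, 11.3%, 11.8%, 8.83%, 13.2% and 12.8%). Genes that carry Pol II had regions more often than all measured genes. Of the 6395, 32.0% had one in the top C/EBPbeta list of 36 h and 34.0% in that of 3 h, beside 38.7% and 32.3% of the members.

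**Figure D4:**
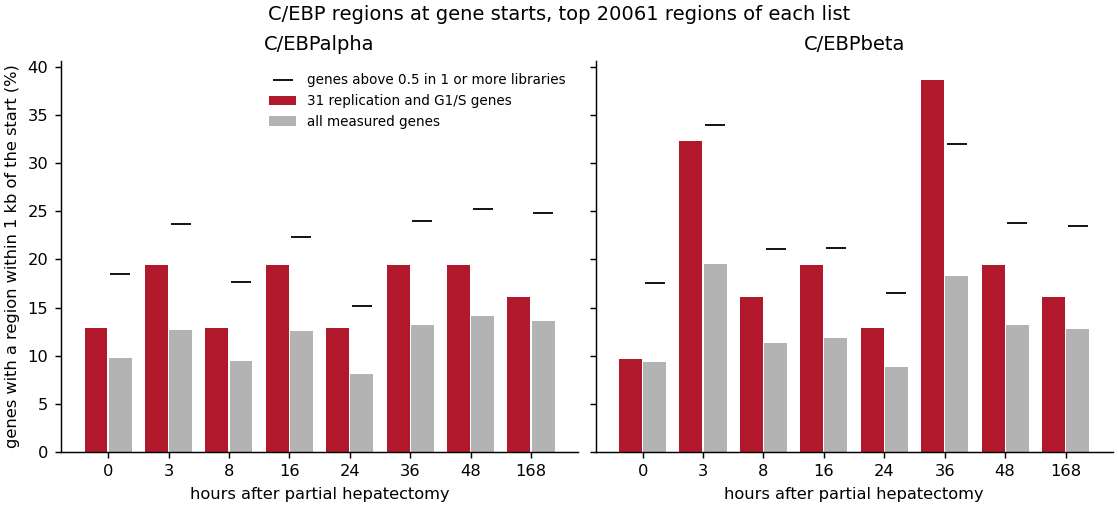
Share of genes (vertical axis, percent) whose start has a C/EBPalpha (left) or C/EBPbeta (right) region centre within 1 kb, by time (horizontal axis, hours), among the top 20061 regions of each list. Red bars are the 31 replication and G1/S genes, grey bars the 20933 measured genes and black dashes the genes above 0.5 in 1 or more Pol II libraries; the red bars are tallest for C/EBPbeta at 3 and 36 h.

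The members fell into several kinds by where these regions lay. These kinds were not among the planned counts. Their shares are of all measured genes, and those of genes that carry Pol II were not counted. Mcm3, Gins1 and Slbp had a region of both factors within 1 kb in all 16 lists, as did 5.33% of measured genes. At Slbp the C/EBPbeta region of 36 h (chromosome 5, 33995002 to 33995027) was centred 45 bp before the start and ranked in the top 2.76% of its list, with the authors' score of 135. At Mcm3 the C/EBPbeta regions lay 195 to 259 bp before the start at the 8 times. Constant regions thus stood at a gene whose Pol II was higher at 36 h (Mcm3), at one with a small 36 h value (Slbp) and at one below 0 throughout (Gins1). Fen1 was met in 12 of 16 lists, Mcm7 in 11 and Chaf1b in 10.

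Cdc6, Cdt1, Rrm1 and Uhrf1 formed another kind, with a C/EBPbeta region within 1 kb at 3 and 36 h, at no other time, and no C/EBPalpha region at any time. Of all measured genes, with or without Pol II signal, 1.99% had this pattern. Cdt1 regions were centred 47 bp past the start at 3 h and 8 bp before it at 36 h, and those of Rrm1 29 bp past and 4 bp before. At Uhrf1 they were 422 and 465 bp before the start and at Cdc6 650 and 716 bp before, so at each of the 4 genes the regions of 3 and 36 h were near one another. All 4 genes were below 0 in Pol II at 3 h and above 0.5 at 36 h. Counted from the top, their scores ranked at 32.1% to 82.2% of the 3 h list and 34.4% to 68.1% of the 36 h list.

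Mcm6, Rrm2 and Tyms had a C/EBPbeta region within 1 kb at 36 h and in no other list of either factor, a pattern met in 1.13% of measured genes. The Rrm2 region (chromosome 12, 25392869 to 25392893) lay 268 bp before the start and scored 7, at 88.3% of the list from the top. Those of Mcm6 and Tyms lay 195 and 119 bp before the start and scored 11 each. They were among the weaker regions of the list. Rrm2 also had C/EBPbeta regions within 10 kb at all 8 times, whereas Tyms had none at another time.

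Of the rest, Pcna had a C/EBPbeta region within 1 kb in 5 lists (3, 8, 16, 36 and 48 h) and a C/EBPalpha region at 16 and 36 h. At 36 h the C/EBPbeta region lay 148 bp before the start and the C/EBPalpha region 140 bp before. Mcm4 had C/EBPbeta regions at 3, 16 and 36 h, Rfc3 at 3 and 36 h, Pole at 3, 8, 36 and 168 h, and Tk1 at 3 and 168 h but not at 36 h. Mcm10 had regions of C/EBPbeta at 0 and 16 h, and Pola1 and Dut at 0 h alone, in the longest list, which held 54574 regions. No region of either factor lay within 1 kb in any list for 10 members: Mcm2, Mcm5, Gins2, Prim1, Lig1, Chaf1a, Ccne1, Ccne2, E2f1 and E2f8. Of measured genes 62.1% had none. Mcm2 and E2f8 nonetheless had regions of both factors within 10 kb in all 16 lists.

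**Figure D5:**
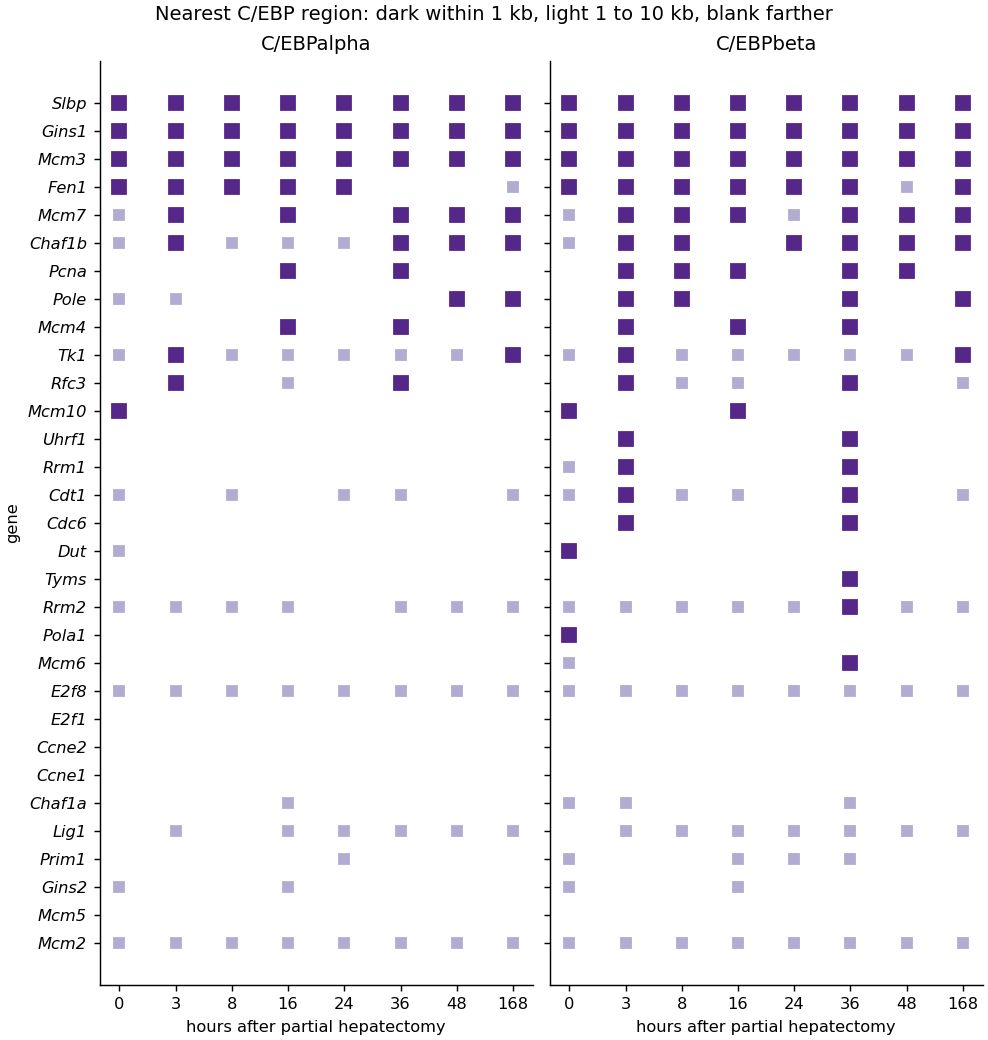
Distance class of the nearest C/EBPalpha (left) and C/EBPbeta (right) region for each of the 31 genes (rows) at each time (columns, hours): dark squares within 1 kb of the start, light squares from 1 to 10 kb, blanks farther. Slbp, Gins1 and Mcm3 are dark in all 16 columns, and Uhrf1, Rrm1, Cdt1 and Cdc6 are dark only in the C/EBPbeta columns of 3 and 36 h.

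C/EBPbeta regions and Pol II at 36 h did not pick the same members. Of the 19 members above 0.5 as deposited at 36 h, 12 had a C/EBPbeta region within 1 kb at that time, and of the other 12 members 5 had one. Gins2, E2f1, E2f8, Tk1, Mcm2, Mcm5 and Mcm10 passed 0.5 at 36 h without one, and Gins1, Pole, Rfc3, Slbp and Tyms had one below it. Compared with 24 h, 12 members had a C/EBPbeta region within 1 kb at 36 h and not at 24 h, against 12.7% of measured genes, and none had one at 24 h and not at 36 h, against 2.03%.

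The Egr1 list of 36 h was used to ask whether that factor lay at these genes too. None of the 31 members had an Egr1 peak centre within 1 kb of the start, against 2.22% of measured genes, and none when any base of a peak was counted. So few genes had one in all that 0 of 31 lies near this share. Within 10 kb there were 6 members, against 10.9% of measured genes and 17.5% of those above 0.5 in at least 1 Pol II library. The nearest peaks were those of E2f8, 2782 bp before the start, Tk1 (3114 bp), Mcm4 (5475 bp), Mcm5 (6392 bp), Mcm2 (7981 bp) and Chaf1b (9107 bp), all before the start. Peaks there had the authors' scores of 52.8 to 168, where the median of the list was 103.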

How the data were processed

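ChIP-seq files of 25 samples were used: 8 each for Pol II, C/EBPalpha and C/EBPbeta, and 1 for Egr1. The mock sample at 0 h was not analysed here. Per the submitters' processing notes, the tools included Bowtie 0.12.7 and MACS 1.4.1 and the build was mm9. The deposited C/EBP and Egr1 lists carry a score, scaled from 1 to 1000 within each C/EBP list; not given in the sources used here are the caller of the C/EBP regions, the controls, the scaling of Pol II and any batches. A batch and a time therefore cannot be told apart.

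The deposited Pol II value is a signed sum per gene row. Rows under 500 bp, reversed, of shared names or off the named chromosomes were left out. Values per bp were divided by each library's median ratio, taken over the 1472 genes that passed 0.5 throughout, floored at 0 and logged with a pseudocount of 0.5. The trend test used limma 3.58.1 in R 4.3.3, on the rank of time, and was tested on simulated data. Since the values are no counts, the test planned for other units was used. Rescaling moved changes against 0 h by -0.32 (16 h) to 0.97 (168 h) on the log2 scale. Starts are row starts moved back 500 bp by strand.

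Members and lists were chosen with earlier results of these data known. Members above 0.5 in at least 2 libraries were to be described singly. The 36 h genes were added after their values were seen. Other pathway genes were to be named where they met the same filter and differed by 1 or more on the log2 scale at 36 h against 0 h, which only Pole3 and Tfdp1 did. Promoters were to be those with both a C/EBPbeta region and an Egr1 peak, which no member had. Symbols missing from the files were looked up under older names in RefSeq. Alternatives covered scaling, background, pseudocount, filters, left-out libraries, list length, score, distance and start.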

Additional observations from a re-analysis of the deposited data

How the results depend on the processing

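The number of members highest at 36 h with signal was 13 and stayed at 10 to 19 under other scalings and without the 3 or 168 h library, and was 8 when a signal above 1 was asked. The number higher by 1 or more at 36 h than at 0 h was 9. It was 15 with no rescaling, 14 with the background level set per library, 22 with a pseudocount of 0.05 and 2 with one of 2, where the larger pseudocount by construction shrinks changes of low genes. It was 8 with upper quartile scaling and 10 against the median of the other 7 libraries, an alternative chosen after seeing the data, like leaving out the 3 or 168 h library. No member's change turned in direction among those called. The trend test called no member under any alternative, and its smallest adjusted p for a member ranged from 0.0873 (without the 0 h library) to 0.715 (without the 168 h library). Being a test of a smooth trend, it cannot decide on genes raised at 36 h alone. Over all genes it called 1, 0 with a pseudocount of 0.05 or no filter, and 0 to 6 with 1 library left out. C/EBPbeta regions within 1 kb at 36 h numbered 17, and 1 at a score of 100 or more, a limit met by 1582 of 31658 regions. C/EBPalpha regions numbered 8, 0 at that score and 14 within 10 kb. Egr1 peaks numbered 0 within 1 kb and 6 within 10 kb. For the numbers that moved, the cause was not tested, except where the setting itself changes what is counted. No paired analysis was possible because each antibody and time had 1 sample and the labels carry no replicate numbers. Depth is unknown, so members near 0 cannot be called silent.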

Other observations

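E2f1 was not alone in carrying Pol II at 0 and 36 h with less between. Among the 64 other replication and G1/S genes, Pola2, of the polymerase that primes synthesis, had values of 1.06, 0.0407 and 1.20 in the libraries of 0, 24 and 36 h. Timeless, of the fork protection complex, was at 1.07, 0.164 and 1.83, and E2f2, another activating E2F factor, at 0.511, -0.156 and 1.11. Rpa2, a single-strand binding protein, was at 0.518, -0.00862 and 0.720. Gins4, of the helicase complex, was at 0.813 at 0 h and -0.0347 at 36 h. These genes were picked after their values were seen, and 1 library per time gives no replicate check.

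Of the G2/M genes, Cdc2a, the kinase gene now called Cdk1, had values of 0.00550, 1.52 and 0.812 in the libraries of 0, 36 and 48 h. Cdc20, an activator of the anaphase promoting complex, was at 0.830, 1.73 and 1.95, and Cenpa, the centromere histone, at 0.0440, 0.301 and 0.758. Ube2c, of the same degradation machinery, was at -0.604, 1.48 and 0.520, and Aurka, a spindle kinase, was highest at 16 h, at 1.91.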
